A study of Mus musculus with 3 samples.

Results

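The miRNAs described here are the mature arms of miR-199a, miR-199b, miR-214, miR-143 and miR-145 in mouse TAG1 ES cells. They were taken by name from the deposited lists, every listed arm of these 5 miRNAs being included. This gave 10 arms out of 693 listed miRNAs. The arms are miR-199a-3p, miR-199b-3p, miR-199a-5p, miR-199b-5p, miR-214-3p, miR-214-5p, miR-143-3p, miR-143-5p, miR-145-5p and miR-145-3p. miR-199a-3p and miR-199b-3p held the same value in every library, so the 10 arms carry 9 distinct sets of values.

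TAG1 is an ES cell line in which doxycycline (Dox) switches on Alk4*, a constitutively active receptor that phosphorylates Smad2/3, and all 3 groups were TAG1 cells. The Control cells were untreated. The SB cells received 30 µM of the receptor inhibitor for 16 hrs, which the labels call SB-431541 and the methods SB-431542. The Dox cells received the same 16 hrs of SB and then 1 µg/µl Dox for 12 hrs. According to the labels p-Smad2/3 was repressed in the SB cells and induced in the Dox cells. The methods place the Control cells in FBS and the SB and Dox cells in Knockout Serum Replacement, so that medium and inhibitor cannot be told apart in any comparison with Control. Compared with the SB cells, the Dox cells also had 12 hrs more of culture after the SB treatment, and the drug itself. Neither can be told apart from Alk4* induction in that comparison. The study tested Dox in the parental J1 line by qPCR of 12 miRNAs, none of them an arm described here. Each group was 1 library with no replicate. The methods mention feeder cells for another assay. Whether the sequenced cultures held any is not given in the sources used here.

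miRNAs are cut from hairpin transcripts and guide the silencing of mRNAs that pair with their seed, the bases from 2 to 8 of the mature strand. One arm of a hairpin is usually kept as the guide strand and the other, the passenger, is mostly degraded. miR-214 and one of the miR-199a hairpins are made from a long non-coding transcript, Dnm3os, which is active in embryonic mesenchyme, and miR-199a and miR-214 are familiar miRNAs of fibroblasts and connective tissue. miR-143 and miR-145 share a primary transcript and are abundant in smooth muscle and fibroblasts, where miR-145 favours the contractile state and where serum response factor and Smad signaling are known to activate their gene. In undifferentiated ES cells these miRNAs are generally scarce, and the miR-290 to miR-295 cluster dominates.

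The mature sequences of the miR-199 and miR-214 arms other than miR-199b-5p are shown because they decide which values can be told apart. They are given 5′ to 3′ from RefSeq on GRCm38.p6 for 5 of the 10 arms, with the seed in capitals.
miR-199a-3p: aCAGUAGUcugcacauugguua
miR-199b-3p: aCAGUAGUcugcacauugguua
miR-199a-5p: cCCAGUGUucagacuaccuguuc
miR-214-3p: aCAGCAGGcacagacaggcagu
miR-214-5p: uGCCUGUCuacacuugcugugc

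The 3p arms of miR-199a and miR-199b were identical over all 22 bases, and a read that matched several miRNAs equally well was assigned to each of them by the authors. Their shared value is therefore the sum over 3 hairpins and is counted below as 1 measurement, written miR-199-3p. No other listed miRNA with a RefSeq sequence carried the seed of an arm shown above. miR-199b-5p had no sequence in the source used, so its seed was not compared. miR-761, the only further RefSeq miRNA with the seed of miR-214-3p, was not among the listed miRNAs.

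The hairpins lie at few places in the genome. On GRCm38 the hairpin of miR-199a-2 is on the + strand of chromosome 1 from 162217814 to 162217923, and that of miR-214 follows 5444 bases further on, from 162223368 to 162223477. Both are within an exon of Dnm3os and, on the opposite strand, within an intron of Dnm3, a dynamin gene. The hairpin of miR-199a-1 is on the − strand of chromosome 9 from 21496495 to 21496564, opposite an intron of Dnm2. That of miR-199b is on the + strand of chromosome 2 from 32318460 to 32318569, opposite an intron of Dnm1. Thus each of the 3 miR-199 hairpins faces an intron of a different dynamin gene. The hairpins of miR-145 and miR-143 are neighbours on the − strand of chromosome 18, with 1301 bases between them. RefSeq places both inside the non-coding gene Carmn, whereas in GENCODE M21 no gene other than the hairpins' own overlaps them.

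Levels are in rpm, the reads of a miRNA per 1000000 reads in its library as the authors deposited them. Each value was a whole number of reads, so the total by which the authors divided could be recovered from the files. This divisor was 10955686 reads for Control, 11354692 for SB and 9895513 for Dox. It is smaller in each library than the number of sequenced reads that the results of the study state, and which reads it leaves out is not given in the sources used here. It makes 1 read worth between 0.0881 and 0.101 rpm. Reads on listed miRNAs were 28.3% of these in Control, 24.1% in SB and 33.4% in Dox. Intervals given with levels, ratios and shares are 95% exact intervals. They cover counting error only, since the reads carry no molecular identifiers and no group had a replicate, and no p-value for a condition can be given. In these bulk libraries a change in the number of cells that make a miRNA cannot be told apart from a change in its amount per cell.

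miR-199-3p was by far the most abundant of these miRNAs and was highest in the SB library. It had 547 rpm in Control (5995 reads), 1943 rpm in SB (22066 reads) and 337 rpm in Dox (3330 reads). By level it stood at place 69 of the listed miRNAs in Control, at place 26 in SB and at place 96 in Dox. SB was 3.55-fold above Control (3.45 to 3.65). Dox was in turn 5.77-fold below SB (5.57 to 5.99) and 1.63-fold below Control (1.56 to 1.70). Only 20 of the 693 listed miRNAs had a larger ratio of SB over Control than miR-199-3p, whose place from the top was 21.

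The 5p arms of miR-199, which differ between miR-199a and miR-199b and so separate the genes, were scarce and followed the same order of libraries. miR-199a-5p had 3.65 rpm in Control (40 reads), 19.4 rpm in SB (220 reads) and 2.32 rpm in Dox (23 reads). miR-199b-5p had 3.01 rpm in Control (33 reads), 12.5 rpm in SB (142 reads) and 1.52 rpm in Dox (15 reads). For each of them SB was the high library. miR-199a-5p was 5.31-fold higher in SB than in Control (3.78 to 7.63) and 8.34-fold lower in Dox than in SB (5.41 to 13.4). For miR-199b-5p these ratios were 4.15-fold (2.83 to 6.26) and 8.25-fold (4.84 to 15.1), within the intervals of miR-199a-5p. miR-199b-5p supplied 45.2% of the miR-199 5p reads in Control (33.5 to 57.3), 39.2% in SB (34.2 to 44.5) and 39.5% in Dox (24.0 to 56.6), shares whose intervals overlapped. The miR-199b gene and the pair of miR-199a genes were therefore represented in like proportion in the 3 libraries as far as the counts can show.

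miR-214, which shares the Dnm3os transcript with miR-199a-2, had few reads. miR-214-3p had 1.46 rpm in Control (16 reads), 6.87 rpm in SB (78 reads) and 0.101 rpm in Dox, where it had 1 read. It was 4.70-fold higher in SB than in Control (2.72 to 8.63). The ratio of SB over Dox was 68.0, but with 1 read in Dox its interval ran from 11.8 to 2719. That ratio of Dox over SB was the lowest of the 693 listed miRNAs. miR-214-5p, the opposite arm, had 4 reads in Control, 18 in SB and 1 in Dox, or 0.365, 1.59 and 0.101 rpm. Its ratio of SB over Control was 4.34 (1.43 to 17.6) and that of SB over Dox was 15.7 (2.48 to 654). Against the scarce 5p arm of its transcript partner, miR-214-3p made up 28.6% of the reads of miR-214-3p and miR-199a-5p in Control (17.3 to 42.2), 26.2% in SB (21.3 to 31.6) and 4.17% in Dox (0.105 to 21.1). The SB and Dox intervals of this share were separated by a narrow margin that rests on the single Dox read.

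**Figure D1:**
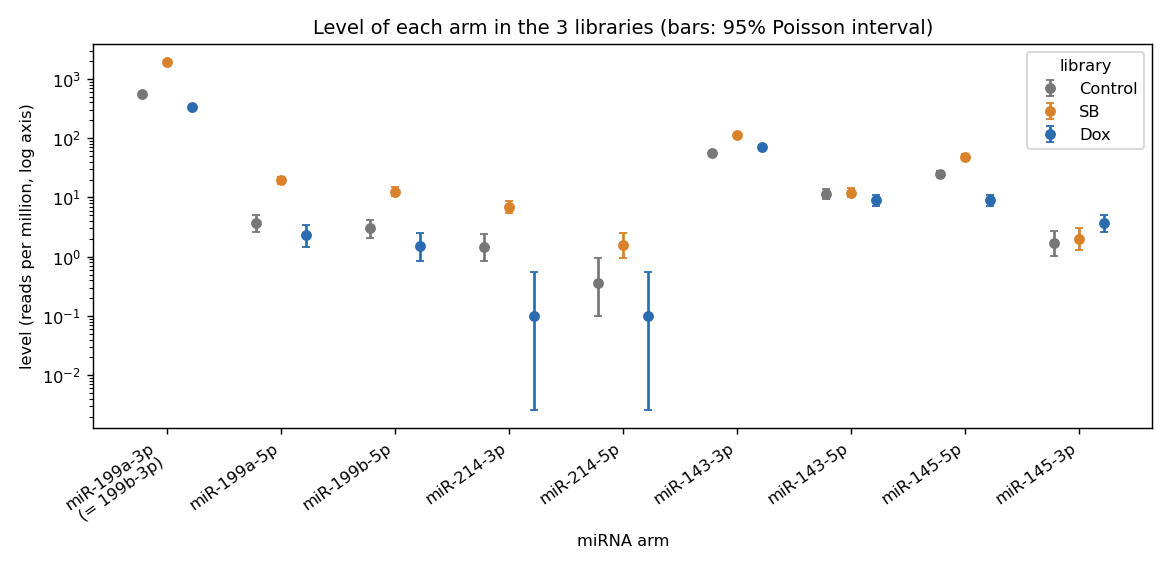
Level of each arm in the Control, SB and Dox libraries, in rpm on a log axis. Points are the single library of each group and bars are 95% Poisson intervals of the read number. The SB point is the highest for 8 of the 9 values shown, and miR-145-3p is the exception.

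miR-143-3p, the guide arm of miR-143, was the next most abundant and changed less. It had 55.5 rpm in Control (608 reads), 114 rpm in SB (1299 reads) and 71.9 rpm in Dox (711 reads). SB was 2.06-fold above Control (1.87 to 2.27) and Dox was 1.59-fold below SB (1.45 to 1.75). Unlike the miR-199 and miR-214 arms it was still above Control in Dox, by 1.29-fold (1.16 to 1.45), although this last difference was below the 25% needed for a call under each of the 4 other scalings. miR-143-5p, the passenger arm, varied little between Control and SB and was lower in Dox than in SB. It had 11.5 rpm in Control (126 reads), 12.0 rpm in SB (136 reads) and 8.99 rpm in Dox (89 reads). Its SB level was 1.04-fold the Control level (0.811 to 1.34), an interval that includes no difference. Its Dox level was 1.33-fold below SB (1.01 to 1.76).

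miR-145-5p, the guide arm of miR-145, was close to miR-143-3p in its ratio of SB over Control but not in that of Dox over SB. Its levels were 25.1 rpm in Control (275 reads), 49.1 rpm in SB (557 reads) and 8.99 rpm in Dox (89 reads). SB was 1.95-fold above Control (1.69 to 2.27), while Dox was 5.45-fold below SB (4.35 to 6.90) and 2.79-fold below Control (2.19 to 3.59). As a share of the reads of miR-145-5p and miR-143-3p, a quantity that no single factor per library can move, miR-145-5p held 31.1% in Control (28.1 to 34.3), 30.0% in SB (27.9 to 32.2) and 11.1% in Dox (9.03 to 13.5). The guide arms of this shared transcript thus kept their proportion between Control and SB within counting error, and not between SB and Dox. How often shares between arms of separate hairpins differ in this way over all listed miRNAs was not measured.

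miR-145-3p, the passenger arm of miR-145, was the only one of the 10 arms with its highest value in Dox. It had 1.73 rpm in Control (19 reads), 2.03 rpm in SB (23 reads) and 3.74 rpm in Dox (37 reads). Dox was 1.85-fold above SB (1.07 to 3.25), on few reads, and 2.16-fold above Control (1.21 to 3.97). The difference from SB was called on the rpm scale of the authors, by the criteria given below, and not under any of the 4 other scalings, where its log2 ratio lay between 0.42 and 0.65. Among the passenger reads of this shared transcript, miR-145-3p held 13.1% of miR-145-3p and miR-143-5p in Control (8.08 to 19.7), 14.5% in SB (9.40 to 20.9) and 29.4% in Dox (21.6 to 38.1). The Dox interval lay above the others, but only narrowly above that of SB and on few reads. How often such shares differ between arms of separate hairpins over all listed miRNAs was not measured.

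The proportion of the arms within a hairpin is likewise unmoved by a single factor per library, and was compared on the reads themselves. miR-145-3p made up 6.46% of the reads of miR-145 in Control (3.94 to 9.91), 3.97% in SB (2.53 to 5.89) and 29.4% in Dox (21.6 to 38.1). The Dox share thus stood clear of both others. For miR-143 the 5p arm held 17.2% in Control (14.5 to 20.1), 9.48% in SB (8.01 to 11.1) and 11.1% in Dox (9.03 to 13.5), and here it was the Control share that stood apart. The 5p arms held 1.20% of all miR-199 reads in Control (0.944 to 1.51), 1.61% in SB (1.45 to 1.79) and 1.13% in Dox (0.800 to 1.55), intervals that overlapped in every pair. Overlap does not show that the shares were equal. For SB over Control the interval of the miR-199a-5p ratio given above lay clear of that of miR-199-3p, while that of miR-199b-5p did not. For miR-214 the intervals were too wide to show a difference, with 18.8% on the 5p arm in SB (11.5 to 28.0) and only 2 reads for both arms in Dox. Shares with intervals that do not overlap were common in these libraries. Among 239 hairpins with both arms listed they made up 20.1% between SB and Control, 40.6% between Dox and SB and 38.1% between Dox and Control. The less abundant arm had the higher ratio of Dox over SB in 118 of the 239, with a median difference between arms near 0. The difference for miR-145, 3.33 on the log2 scale, was at place 4 from the top. That for miR-214, 2.12, was at place 12 but rests on 1 Dox read for each arm, and that for miR-143, 0.26, was at place 103. For miR-199b and miR-199a the differences had the other sign, −0.51 and −0.53, at places 160 and 161.

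**Figure D2:**
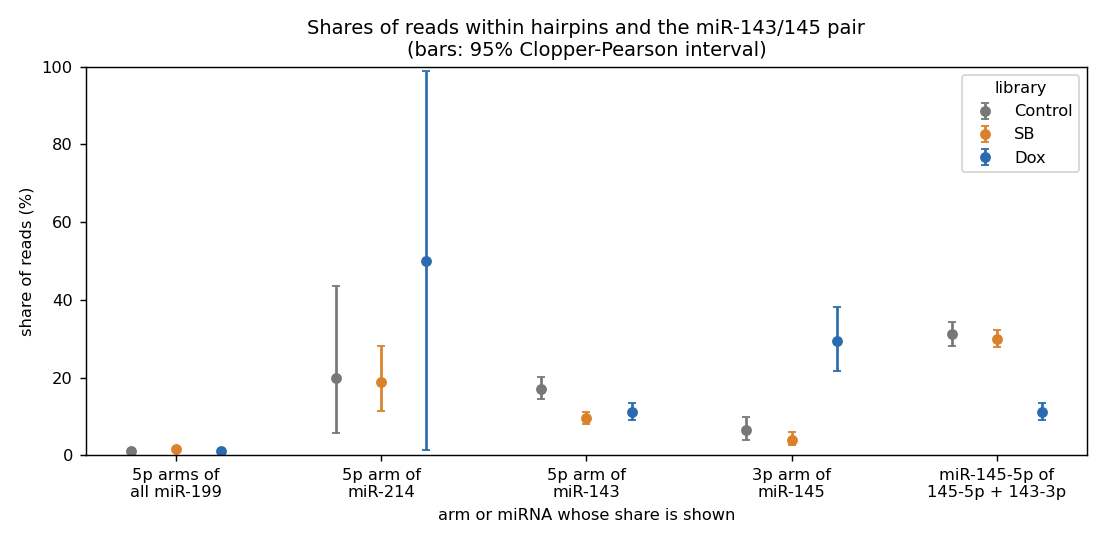
Share of reads, in percent, held by the named arm or miRNA in the Control, SB and Dox libraries. Points are the single library of each group and bars are 95% Clopper-Pearson intervals. The 3p share of miR-145 is 29.4% in Dox against 3.97% in SB, and the share of miR-145-5p relative to miR-143-3p is 11.1% in Dox against 30.0% in SB.

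The order of the arms by level was similar at its head and changed lower down. In each library miR-199-3p came first and miR-143-3p second. In Control these were followed by miR-145-5p and miR-143-5p, and then by miR-199a-5p and miR-199b-5p, which did not differ from each other beyond their intervals. In SB miR-199a-5p moved above miR-143-5p, and miR-199b-5p and miR-143-5p could not be separated at 12.5 and 12.0 rpm. In Dox miR-145-5p and miR-143-5p had the same number of reads, and both miR-214 arms came last. Mature miRNAs are of nearly equal length, so these levels were not divided by length, and differences in how well each sequence is ligated were not measured.

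Calls over all miRNAs used the criteria of the study. The higher library had to exceed the lower by 25% or more, and the Z-score had to lie outside the central 95% of a normal distribution. The Z-score sets the reads of a miRNA in 1 library against those in another and so compares libraries, not conditions. Of the 10 arms, 8 were higher in SB than in Control, where 15.3% of the listed miRNAs were called higher and 30.2% lower. The other 2, the passenger arms miR-143-5p and miR-145-3p, were not called. Between SB and Dox 9 of the 10 arms were lower in Dox, where 17.9% of the listed miRNAs were called lower and 41.7% higher, and miR-145-3p was the exception. Calls over all listed miRNAs moved with the scaling. When the reads on listed miRNAs were taken as the total of a library instead, 23.8% were higher and 20.8% lower in SB than in Control, and 31.5% were lower and 23.5% higher in Dox than in SB. The counts of 8 and of 9 arms were the same under that scaling.

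Relative to the untreated cells the Dox library gave a mixed picture. By the same criteria 5 of the 10 arms were lower in Dox than in Control, where 19.8% of the listed miRNAs were called lower and 30.6% higher. They were miR-145-5p, miR-214-3p, miR-199b-5p and the 3p arms of miR-199a and miR-199b. miR-143-3p and miR-145-3p were higher, and miR-143-5p, miR-199a-5p and miR-214-5p were not called. With the reads on listed miRNAs as totals, 29.1% of the listed miRNAs were lower and 20.6% higher in Dox than in Control, and 7 of the 10 arms were lower and 1 was higher. Together the 9 distinct values came to 650 rpm in Control (635 to 665), 2161 rpm in SB (2134 to 2188) and 434 rpm in Dox (421 to 447). Of the miRNA reads they held 0.229% in Control, 0.896% in SB and 0.130% in Dox. The sum for miR-143 and miR-145 alone was 93.8 rpm in Control (88.2 to 99.7), 177 rpm in SB (170 to 185) and 93.6 rpm in Dox (87.6 to 99.8), so that on this scale the Control and Dox sums did not differ beyond counting error. Of the reads on listed miRNAs, however, miR-143 and miR-145 held 0.0331% in Control (0.0311 to 0.0352) and 0.0280% in Dox (0.0263 to 0.0299), and there the Dox sum was below that of Control.

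The median log2 ratio over the 10 arms was 1.83 for SB over Control, with a range from 0.06 to 2.41, beside −0.19 over all listed miRNAs. For Dox over SB it was −2.53, with a range from −6.09 to 0.88, beside 0.38 over all listed miRNAs. For Dox over Control it was −0.70, with a range from −3.85 to 1.11, beside 0.19. The first pair of comparisons shares the SB library, and so does not measure it independently. Taking the reads on listed miRNAs as totals moved the medians over all listed miRNAs to 0.04, −0.09 and −0.05, while those over the 10 arms became 2.06, −2.998 and −0.94.

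**Figure D3:**
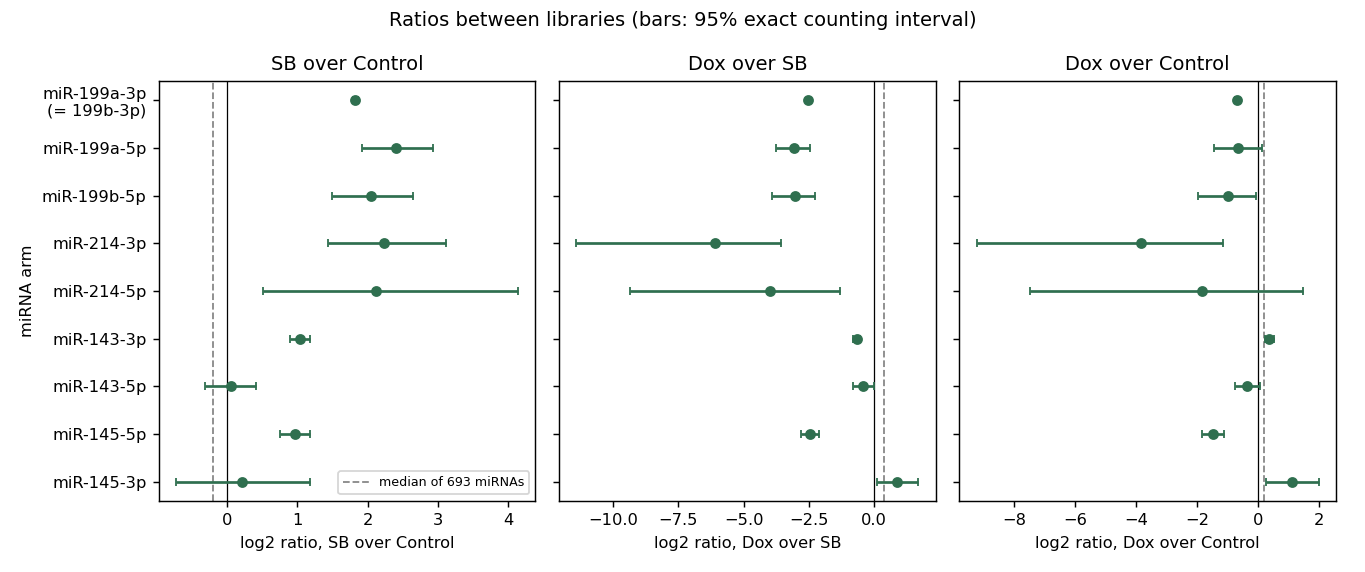
Log2 ratios of SB over Control, Dox over SB and Dox over Control for the 9 distinct values. Points are ratios between single libraries, bars are 95% exact counting intervals, the solid line marks no difference and the dashed line the median of the 693 listed miRNAs. The miR-199 and miR-214 arms lie to the right in the first panel and to the left in the second, with the miR-143 arms nearer to the middle.

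Other miRNAs of mesenchymal cells were called mostly in the direction of these arms in the comparisons with SB. A list of 24 such miRNAs, chosen with earlier results of these data known, was listed in full. Of them 15 were higher and 1 was lower in SB than in Control, beside 15.3% and 30.2% of all listed miRNAs. In Dox 14 were lower and 6 higher than in SB, beside 17.9% and 41.7%. Between Dox and Control 4 were lower and 7 higher, beside 19.8% and 30.6% of all listed miRNAs, and with listed reads as totals 7 were lower and 6 higher, beside 29.1% and 20.6%. Their median log2 ratio was 0.82 for SB over Control, −0.69 for Dox over SB and −0.03 for Dox over Control. Summed, they had 6276 rpm in Control, 11699 rpm in SB and 7439 rpm in Dox. Of the reads on listed miRNAs they held 2.22% in Control, 4.85% in SB and 2.23% in Dox, and there Control and Dox did not differ beyond counting error. The lowest ratio of Dox over SB in this list belonged to miR-99a-5p, which had 3.19 rpm in Control, 31.9 rpm in SB and 1.62 rpm in Dox. The highest belonged to miR-335-5p, a miRNA made from an intron of the imprinted gene Mest, with 55.5, 55.6 and 179 rpm in the same order. Whether the number of mesenchymal or feeder cells in the cultures had a part in the values of miR-199, miR-214, miR-143 and miR-145 was not tested.

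Markers of ES cells and of other cell types were read in the same way. All 12 miRNAs of a list known from ES cells were present, with a sum of 35193 rpm in Control, 38349 rpm in SB and 41102 rpm in Dox. The order of these sums depends on the scale, since of the reads on listed miRNAs they held 12.4% in Control, 15.9% in SB and 12.3% in Dox, with SB highest. Of these 5 were higher in SB than in Control and none was lower, beside 15.3% and 30.2% of all listed miRNAs, and with listed reads as totals 8 were higher and none was lower, beside 23.8% and 20.8%. In Dox 8 were lower and 2 higher than in SB, beside 17.9% and 41.7%. With listed reads as totals 8 were lower and none was higher, beside 31.5% and 23.5%. Among the 10 of these with at least 100 reads miR-292-3p had the lowest ratio of Dox over SB, with 4387, 6146 and 2740 rpm, and miR-291b-3p the highest, with 3.38, 2.73 and 4.04 rpm. Of 7 heart and skeletal muscle miRNAs 4 were listed, and miR-133b-3p, miR-208a-3p and miR-208b-3p were not. miR-206-3p, a miRNA of skeletal muscle and its precursors, had 4.02 rpm in Control, 45.4 rpm in SB and 4.04 rpm in Dox. miR-1a-3p, the major miRNA of heart and skeletal muscle, had 39.6, 49.2 and 50.3 rpm. The largest part of the list in Control was miR-499-5p, named here after its values were seen, with 96.1, 76.2 and 51.6 rpm. By the calls on rpm it was lower in SB than in Control and lower in Dox than in SB, miR-206-3p was higher and then lower, and the other 2 were called in neither comparison. With listed reads as totals the call of miR-499-5p between SB and Control was lost, at a log2 ratio of −0.10, and miR-1a-3p was called higher in SB than in Control, at 0.54, and lower in Dox than in SB, at −0.44. The muscle list summed to 140, 171 and 106 rpm.

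Epithelial miRNAs, the miR-200 family with miR-141, miR-429 and miR-205, had the opposite order of libraries. All 6 were listed, 5 were lower and none higher in SB than in Control, and 6 were higher in Dox than in SB. These directions were also the more frequent ones on the rpm scale, with 30.2% of all listed miRNAs lower in SB than in Control and 41.7% higher in Dox than in SB. With listed reads as totals 3 were lower in SB than in Control and 4 higher in Dox than in SB, where 20.8% and 23.5% of all listed miRNAs were. They summed to 693 rpm in Control, 428 rpm in SB and 1133 rpm in Dox. miR-200a-3p had the highest ratio of Dox over SB, with 390, 232 and 709 rpm, and miR-205-5p the lowest, with 16.2, 13.5 and 19.2 rpm. Of 6 blood miRNAs 3 were listed, summing to 28.9, 36.8 and 77.7 rpm, and the defining miR-142-3p, miR-144-3p and miR-223-3p were not among them. Of the 3, 1 was higher in SB than in Control and 2 were higher in Dox than in either other library. Of all listed miRNAs 15.3% were higher in SB than in Control, 41.7% in Dox than in SB and 30.6% in Dox than in Control. With listed reads as totals 1 of the 3 was still called higher in Dox than in SB, where 23.5% of all listed miRNAs were. miR-142-5p, the opposite arm of the unlisted miR-142-3p, had 4.47 rpm in Control, 2.99 rpm in SB and 22.1 rpm in Dox, which was 7.39-fold above SB. miR-150-5p, of mature lymphocytes, had 22.9, 31.4 and 53.6 rpm. For the endothelial pair, miR-126-3p and miR-126-5p, the sums were 5.20, 7.40 and 6.87 rpm. The neural pair, miR-9-5p and miR-124-3p, summed to 1775, 1545 and 2344 rpm, though of the reads on listed miRNAs its SB share, 0.640%, was not below the Control share, 0.627%. In the same order of libraries miR-122-5p of the liver had 5.84, 24.4 and 19.5 rpm. miR-26a-5p, the reference of the qPCR in the study, had 647 rpm in Control, 766 rpm in SB and 798 rpm in Dox. How far any of these bear on the miR-199, miR-214, miR-143 and miR-145 values was not tested.

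**Figure D4:**
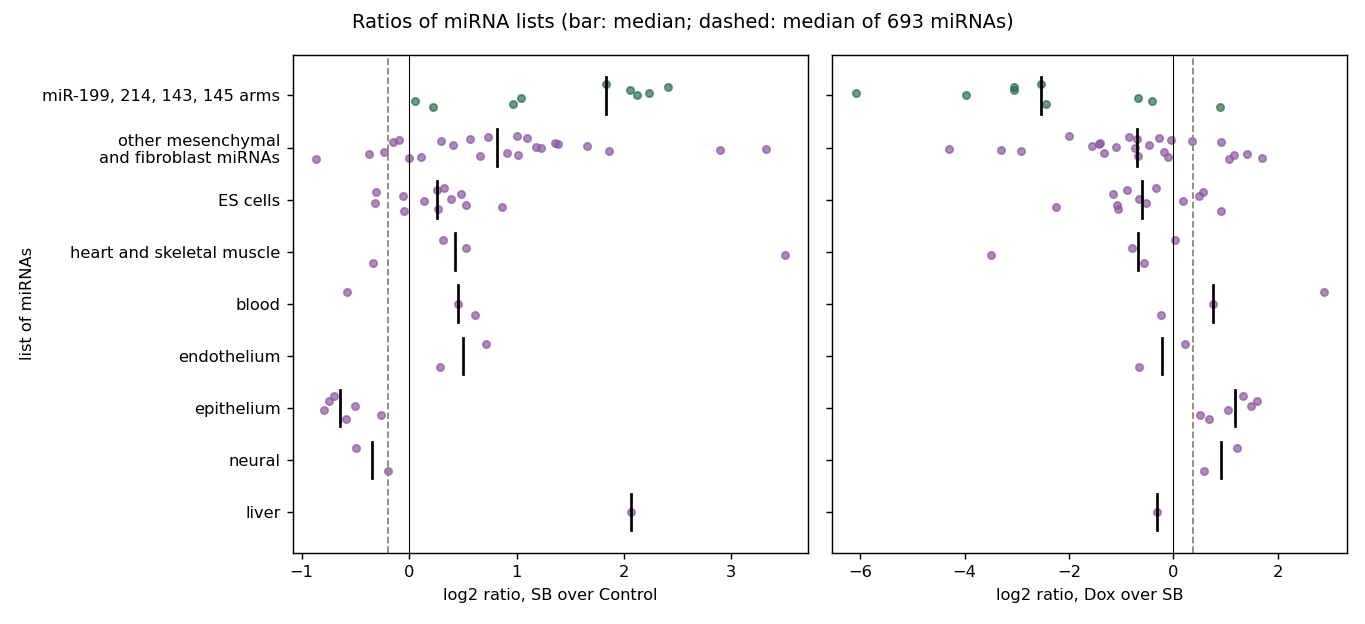
Log2 ratios of SB over Control and of Dox over SB for the 9 distinct values and for lists of miRNAs known from other cell types. Each point is 1 miRNA, the short black bar is the median of the list, the solid line marks no difference and the dashed line the median of the 693 listed miRNAs. The upper 2 rows lie mostly to the right in the left panel and to the left in the right panel, and the epithelium row lies on the other side of each.

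The miRNAs most like these arms in pattern were found by the distance between log2 levels over the 3 libraries, each centred on its own mean, among 451 other miRNAs with at least 100 reads in all. With only 3 libraries this is a description and many miRNAs can come close. Nearest to miR-199-3p was miR-34b-3p at a distance of 0.09, with 4.75 rpm in Control, 15.5 rpm in SB and 2.83 rpm in Dox. It was followed by miR-125b-5p, let-7i-5p, miR-365-3p and miR-186-3p, at distances up to 0.49 where the median was 2.22. miR-125b-5p had 97.0 rpm in Control, 352 rpm in SB and 46.5 rpm in Dox. Nearest to miR-143-3p were let-7a-5p, miR-140-5p and miR-34c-5p at distances of 0.12 to 0.13, then miR-3079-5p and miR-193-5p, with a median of 1.16. The abundant let-7a-5p had 2419 rpm in Control, 4534 rpm in SB and 3148 rpm in Dox. For miR-145-5p the nearest was miR-10a-5p, a miRNA of the Hox gene clusters, at a distance of 0.39, with 38.7, 77.5 and 19.5 rpm. miR-365-3p, miR-196b-5p, miR-34b-3p and miR-186-3p came next, and the median was 2.10. The neighbours of miR-199-3p and miR-145-5p overlapped in miR-34b-3p, miR-365-3p and miR-186-3p, while those of miR-143-3p were all different.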

How the data were processed

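Small RNA from 1 library each of Control, SB and Dox TAG1 cells was sequenced in 2 pooled runs. Per the methods, the authors clipped adaptors with the FASTX toolkit, kept reads over 16 bases and matched them without mismatches to miRBase 18 with Bowtie 0.12.7. The deposited files hold rpm, scaled by the authors to a total for each library, and list miRNAs that reached 10 reads in all. All 2079 deposited rpm values were within 3.98e-05 of a whole read after division by the value of 1 read. With 1 library per group no count test could be fitted.

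The members and lists were chosen with earlier results of these data known. Named miRNAs were the 10 arms, those sharing a seed, the 5 nearest in pattern to 3 guide arms, the extremes of each marker list among miRNAs with at least 100 reads and miR-26a-5p. Ratios carry no pseudocount. Levels were given Poisson intervals, and both shares and ratios Clopper-Pearson intervals (scipy 1.17.1). The script that made the calls was tested on simulated data. Alternatives were scaling to listed reads, edgeR 4.0.16 TMM, DESeq2 1.42.0 median of ratios and quantile normalization, a fold threshold of 2, a pseudocount of 1 rpm, a minimum of 100 reads and identical arms counted once. Hairpin positions came from RefSeq on GRCm38.p6 and genes over them from GENCODE M21.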

Additional observations from a re-analysis of the deposited data

How the results depend on the processing

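No count, median or single ratio of the 10 arms reversed its direction under the alternatives run. The median log2 ratio of the 10 arms for SB over Control became 2.06 with scaling to listed reads, 2.03 with TMM, 2.01 with median of ratios and 2.06 with quantile normalization. For Dox over SB it became −2.998, −2.91, −2.91 and −2.91 in the same order, and that of the other mesenchymal miRNAs −1.16, −1.08, −1.07 and −0.96. For Dox over Control the mesenchymal median became −0.27, −0.21 and −0.23 under the first 3 scalings. The number of arms higher in Dox than in SB went from 1 to 0 under each scaling, with a fold threshold of 2 and with a minimum of 100 reads. The number higher in Dox than in Control went from 2 to 1 under the same alternatives, and the number lower from 5 to 2 with the fold threshold of 2. The cause was not tested where scaling moved a value. Of 75 recomputed summaries of the arms and the mesenchymal list the other 47 stayed the same, which for a count means within 1.5 times and for a median within the median counting interval of its members. Chosen after seeing the data, the median of all listed miRNAs, the summed levels, the calls of each marker list and the muscle miRNAs were also recomputed. The median of all listed miRNAs changed sign for SB over Control to 0.038 with listed reads and 0.013 with TMM, for Dox over SB to −0.090 and −0.0068 with these and −0.0012 with median of ratios, and for Dox over Control to −0.049 with listed reads and −0.0091 with median of ratios. Scaled to listed reads, the log2 ratio of the summed level also changed sign for the ES cell list, to −0.37 for Dox over SB and −0.013 for Dox over Control, and for the neural list, to 0.030 for SB over Control. The log2 ratio of miR-1a-3p for Dox over SB became −0.44 and that of miR-206-3p for Dox over Control −0.23. No paired analysis was possible because each group had 1 library. Depth limits miR-214 most, with 1 read per arm in Dox.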
